A study of Mus musculus with 4 samples.

Results

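The 10 genes described here encode enzymes and regulators that astrocytes use to split sugar, to store and release glycogen, and to handle pyruvate and lactate: Aldoa, Aldoc, Pcx, Ppp1r3c, Pygb, Gys1, Gbe1, Ldha, Ldhb and Pfkfb3. They were chosen by gene symbol from the 19938 genes that the platform annotation names with a single symbol, and each gene was read from its feature with the highest mean over the 4 arrays. Only Ldhb had more than 1 feature, so a choice between features was made for that gene alone, by their mean levels of 9.67 and 8.63. All 10 lay above the filter on dim genes and were among the 13956 genes tested. The genes were listed with earlier results of the same arrays known, so their differences are given as a description and their p-values are no independent evidence.

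Mouse embryos were taken at E18.5 (days of embryonic development), and RNA from their dorsal cortex was measured on 2 control and 2 mutant arrays. The control genotype is labelled Mek1fl/wt, Mek2-/-, and the mutant genotype Mek1fl/fl, Mek2-/- with NestinCre, in which the nestin promoter drives Cre in neural progenitors, so that their neuronal and glial offspring carry the deletion too. Both groups therefore lack Mek2, although the series' own design text calls the controls wild type, and the comparison is the loss of Mek1 in neural cells on that background. Because no control is labelled with NestinCre, the transgene itself and the loss of Mek1 cannot be told apart. Values are log2 expression, normalized by the authors with RMA.

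Astrocytes hold most of the brain's glycogen, which is built by glycogen synthase and branching enzyme and taken apart by glycogen phosphorylase. Sugar from glycogen or blood passes down glycolysis, in which an aldolase splits fructose bisphosphate into a pair of smaller sugars, and ends as pyruvate. Pyruvate is turned into lactate by lactate dehydrogenase or, in astrocytes far more than in neurons, carboxylated by pyruvate carboxylase to refill the tricarboxylic acid cycle and supply carbon for glutamate. At the end of gestation the cortex still holds radial glia, which express several of the same genes as the astrocytes they give rise to.

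Aldoc, Ppp1r3c and Pcx were lower in the mutants, and the other 7 genes did not pass the test. At an adjusted p under 0.05 in limma, 3 of the 10 were called lower and none higher, where 1.01% of all genes tested were called lower and 0.0143% higher. At an unadjusted p under 0.05 the counts were 4 lower and 0 higher, against 7.69% and 5.73% of all genes. Both mutant arrays lay below both control arrays for 6 of the 10 genes, against 21.4% of all genes tested, and above them for none, against 22.8%, so that the groups did not overlap for 6 genes, against 44.3%. The mutant mean was the lower for 8 of the 10, against 47.6% of all genes. The median difference was -0.12 over the 10 genes and 0.01 over all genes tested.

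**Figure D1:**
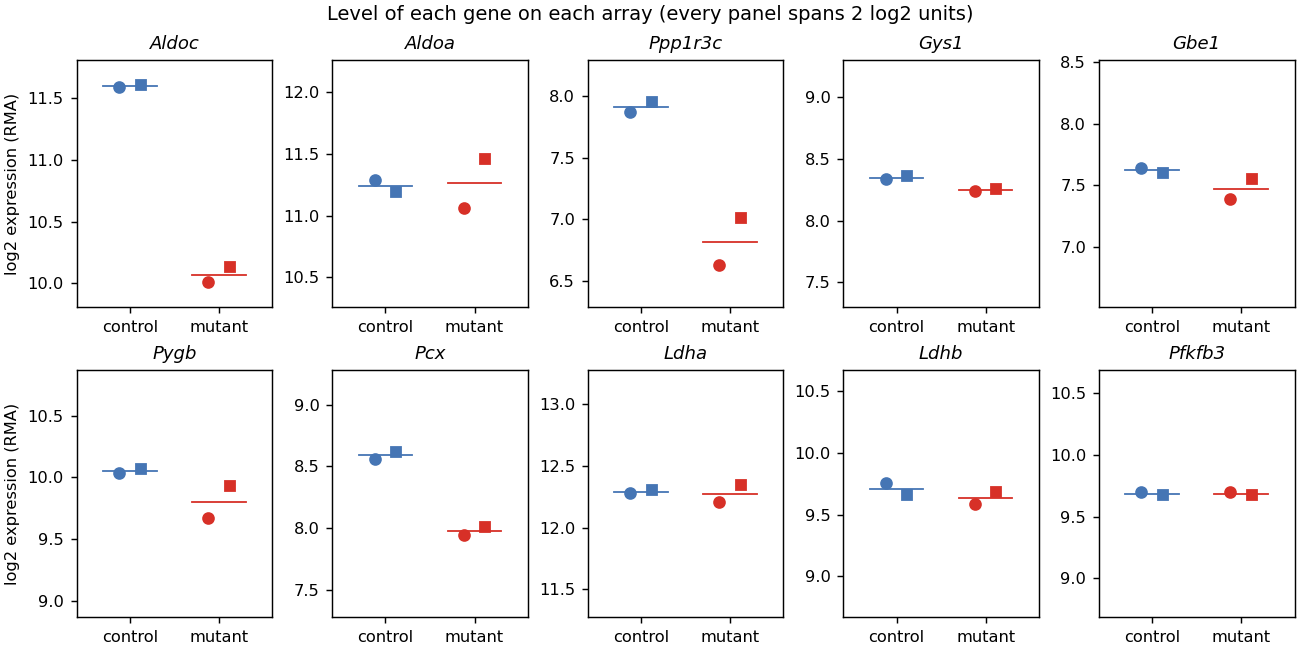
Log2 expression of each gene on each of the 4 arrays, controls in blue and mutants in red, with circles for replicate 1, squares for replicate 2 and a line at the mean of each group. Every panel spans the same range, and the groups are wide apart for Aldoc, Ppp1r3c and Pcx.

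Upstream sequence is shown for the 3 genes that were called lower and, beside them, for Ldha, whose level was close to equal in both groups, a choice made after the values were seen. A run of 250 bases before the transcription start is printed 5′ to 3′ on the gene's own strand, from RefSeq promoter windows on GRCm38.p6, and for genes with several starts the first window listed was taken. Capitals mark matches on either strand to CACGTG, an E box, to ACGTG, the core of the hypoxia response element, which a CACGTG contains on each strand and so counts as 2 matches, to GGGCGG, a GC box, and to CCGGAA, the core of ETS factor sites. The Aldoc run is chr11:78322823-78323072 (plus strand), that of Ppp1r3c chr19:36736605-36736854 (minus strand), that of Pcx chr19:4510222-4510471 (plus strand) and that of Ldha chr7:46845554-46845803 (plus strand).
Aldoc: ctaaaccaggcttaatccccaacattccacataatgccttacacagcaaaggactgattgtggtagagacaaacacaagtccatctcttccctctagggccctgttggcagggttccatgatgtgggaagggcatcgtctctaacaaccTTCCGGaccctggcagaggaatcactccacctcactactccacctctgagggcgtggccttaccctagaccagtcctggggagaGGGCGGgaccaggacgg
Ppp1r3c: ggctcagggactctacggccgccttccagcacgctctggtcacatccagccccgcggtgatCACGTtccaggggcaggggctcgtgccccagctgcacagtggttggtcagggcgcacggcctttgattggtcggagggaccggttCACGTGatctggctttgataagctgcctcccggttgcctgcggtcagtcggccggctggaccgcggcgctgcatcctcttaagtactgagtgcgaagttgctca
Pcx: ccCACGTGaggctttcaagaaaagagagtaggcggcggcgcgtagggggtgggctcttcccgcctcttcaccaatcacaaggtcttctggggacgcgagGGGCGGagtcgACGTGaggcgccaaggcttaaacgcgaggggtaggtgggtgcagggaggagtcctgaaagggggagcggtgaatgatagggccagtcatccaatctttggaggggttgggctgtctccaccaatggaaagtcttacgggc
Ldha: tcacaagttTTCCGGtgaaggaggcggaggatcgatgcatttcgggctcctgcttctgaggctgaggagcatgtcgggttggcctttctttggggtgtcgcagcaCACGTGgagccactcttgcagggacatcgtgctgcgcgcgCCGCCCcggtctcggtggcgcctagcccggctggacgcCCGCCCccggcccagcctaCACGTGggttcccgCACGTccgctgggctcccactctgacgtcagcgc

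No motif of the set was found in all of the called genes. Aldoc held 1 ETS core and 1 GC box and no ACGTG. Ppp1r3c held 3 ACGTG matches, with 1 E box among them, and neither an ETS core nor a GC box. Pcx held 3 ACGTG matches, with 1 E box among them, and 1 GC box. Ldha, which did not pass the test, held 5 ACGTG matches, with 2 E boxes among them, 2 GC boxes and 1 ETS core. Over all 32851 promoter windows of this length, 16.6% held ACGTG, 6.02% CACGTG, 32.7% GGGCGG and 12.03% CCGGAA. The STAT pattern TTCNNNGAA was found in 7.02% of all windows and in none of the runs printed, though a second Aldoc window held 2 matches. All 10 genes had a window, and of their 16 windows 8 held ACGTG, 4 CACGTG, 8 GGGCGG and 3 CCGGAA. Windows 2 and 3 of Aldoa overlap, so that the same ACGTG and GC boxes put both of them in these counts. These matches describe letters only.

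Of the aldolases, Aldoc fell and Aldoa did not pass the test. Aldoc encodes the aldolase of the brain, known in the mature brain from astrocytes and Purkinje cells. It was at 11.59 and 11.61 in controls and at 10.01 and 10.13 in mutants. Both mutants lay far below both controls, and each pair was tight. The difference was -1.53 ± 0.07 (SE), which leaves 34.7% of the control level, a 2.88-fold fall (adjusted p = 0.00538). Counted from the lowest difference, it ranked 7 among the 13956 genes tested, Ppp1r3c ranked 26 and Pcx 155.

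Aldoa, the aldolase of muscle and of most other cells, carries out the same step. It was at 11.29 and 11.19 in controls and at 11.07 and 11.46 in mutants. The mutants lay on either side of the controls, mutant 1 lowest and mutant 2 highest of the 4 arrays. The difference was 0.02 ± 0.13 (SE) with a 95% interval from -0.32 to 0.36 (adjusted p = 0.972), and it turned to -0.17 without mutant 2 and to -0.03 without control 2. Within each array, Aldoc minus Aldoa went from 0.30 and 0.42 in controls to -1.05 and -1.32 in mutants, a change of -1.55. These within-array values show unequal change of the features and do not compare the levels of both genes. No test is given for that change, because with 2 arrays a group the smallest 2-sided exact permutation p is 0.333. RefSeq lists 5 further copies of Aldoa, retrogenes and pseudogenes. Of these, Aldoart1 and Aldoart2 have features of their own. Aldoart1 was at 6.52 and 6.52 in controls and 6.22 and 6.59 in mutants, with mutant 1 again lowest and mutant 2 highest. Aldoart2 was at 5.95 and 5.78 in controls and 5.99 and 5.90 in mutants, without that order, and how far copies share probes with Aldoa was not tested.

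Among the glycogen genes the regulator fell, and the enzymes it acts on did not pass the test. Ppp1r3c encodes PTG, the scaffold that brings protein phosphatase 1 to glycogen, where it activates glycogen synthase and inactivates phosphorylase. It was at 7.87 and 7.95 in controls and at 6.63 and 7.01 in mutants. Both mutants were below both controls, mutant 1 further than mutant 2. The difference was -1.09 ± 0.13 (SE), a fall to 47.0% of the control level or 2.13-fold (adjusted p = 0.0409). The call was lost in 6 of the 14 other fits that tested it: without control 1 (adjusted p = 0.192), without control 2 (0.195), with the crossed pairing that equals a block for embryo sex (0.0702), with no filter on dim genes (0.0980), after further quantile normalization (0.0524) and with all features tested (0.316). It lay at -1.28 for mutant 1 and -0.90 for mutant 2 against the control mean. Whether RMA compressed the difference at the level of the mutants was not tested.

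Gys1 encodes the glycogen synthase of brain and muscle. It was at 8.33 and 8.36 in controls and at 8.24 and 8.26 in mutants. The groups did not overlap, by a narrow gap. The difference was -0.10 ± 0.05 (SE; 95% interval from -0.23 to 0.04; adjusted p = 0.524).

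Gbe1 encodes the branching enzyme that sets side chains on the growing glycogen. It was at 7.64 and 7.60 in controls and at 7.39 and 7.55 in mutants. Mutant 1 stood apart and mutant 2 was close to the controls. The difference was -0.15 ± 0.07 (SE; 95% interval from -0.34 to 0.04; adjusted p = 0.469).

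Pygb encodes the brain form of glycogen phosphorylase, which releases sugar from glycogen. It was at 10.04 and 10.07 in controls and at 9.67 and 9.93 in mutants. Both mutants were below the controls, again with mutant 1 further away. The difference was -0.25 ± 0.10 (SE; 95% interval from -0.49 to -0.01), which did not pass over all genes (adjusted p = 0.362). Without mutant 2 it was -0.38 and passed (adjusted p = 0.0281).

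Of 29 other genes of glycogen synthesis, breakdown and their control, 24 were tested and none was called in limma in either direction. Over all genes tested 1.01% were called lower and 0.0143% higher, so having no call does not set a list of this size apart. At an unadjusted p under 0.05, 1 was lower and 3 were higher, against 7.69% and 5.73% of all genes. The median difference was 0.02. Phkb, the beta subunit of the phosphorylase kinase that switches phosphorylase on, had the smallest p, going from 8.67 and 8.53 in controls to 8.22 and 8.30 in mutants (difference -0.35 ± 0.07 SE, adjusted p = 0.138). It passed without mutant 2 (-0.39, adjusted p = 0.0476). The next were higher in the mutants: Ppp1r3b and Ppp1r3e, glycogen-targeting subunits of the same phosphatase as PTG, differed by 0.24 (adjusted p = 0.190) and 0.21 (adjusted p = 0.272). The muscle and liver phosphorylases Pygm and Pygl differed by 0.05 and 0.04, with adjusted p of 0.916 and 0.926.

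Pyruvate carboxylase was lower in the mutants, and the lactate dehydrogenases did not pass the test. Pcx encodes the mitochondrial enzyme that makes oxaloacetate from pyruvate. It was at 8.56 and 8.62 in controls and at 7.94 and 8.01 in mutants. The pairs were tight and well apart, and the gap between them was many times the spread within either. The difference was -0.62 ± 0.06 (SE), a fall to 65.3% of the control level or 1.53-fold (adjusted p = 0.0254). The call was lost without control 1 (adjusted p = 0.176), without control 2 (0.192), with the block for embryo sex (0.0704), with no filter on dim genes (0.0724) and with all features tested (0.269).

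Ldha encodes the subunit of lactate dehydrogenase that dominates in muscle and in cells making lactate. It was at 12.28 and 12.30 in controls and at 12.21 and 12.34 in mutants. The mutants enclosed the controls. The difference was -0.01 ± 0.07 (SE; 95% interval from -0.19 to 0.16; adjusted p = 0.966), with the sign turned without mutant 1 (0.054).

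Ldhb encodes the subunit that dominates in heart and in neurons. Its brighter feature was at 9.76 and 9.66 in controls and at 9.59 and 9.68 in mutants. The groups overlapped. The difference was -0.07 ± 0.07 (SE; 95% interval from -0.25 to 0.10; adjusted p = 0.725). The dimmer feature of the gene differed by 0.01, from 8.62 ± 0.07 to 8.63 ± 0.03 (SD, n = 2 each). Ldhb minus Ldha within each array was -2.52 and -2.64 in controls and -2.62 and -2.66 in mutants, a change of -0.06 (0.0043 without control 1). RefSeq lists 3 pseudogenes of Ldha and 1 of Ldhb, and how far they share probes with these features was not tested. Ldhb lies on chromosome 6 and its pseudogene on chromosome 19. The platform number of the brighter Ldhb feature falls between those of Pcx and Ppp1r3c, both on chromosome 19. The brighter feature, used in the reported fit and in Ldhb minus Ldha, may therefore read the pseudogene, which was not tested.

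Pfkfb3 encodes the kinase that makes the sugar bisphosphate that activates phosphofructokinase, and is held low in neurons by protein breakdown. It was at 9.70 and 9.67 in controls and at 9.70 and 9.67 in mutants. The pairs were alike to the second decimal. The difference was 0.00 ± 0.06 (SE), with a 95% interval from -0.14 to 0.14 (adjusted p = 0.997), and its sign turned without control 2 (-0.013) and without mutant 1 (-0.014).

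**Figure D2:**
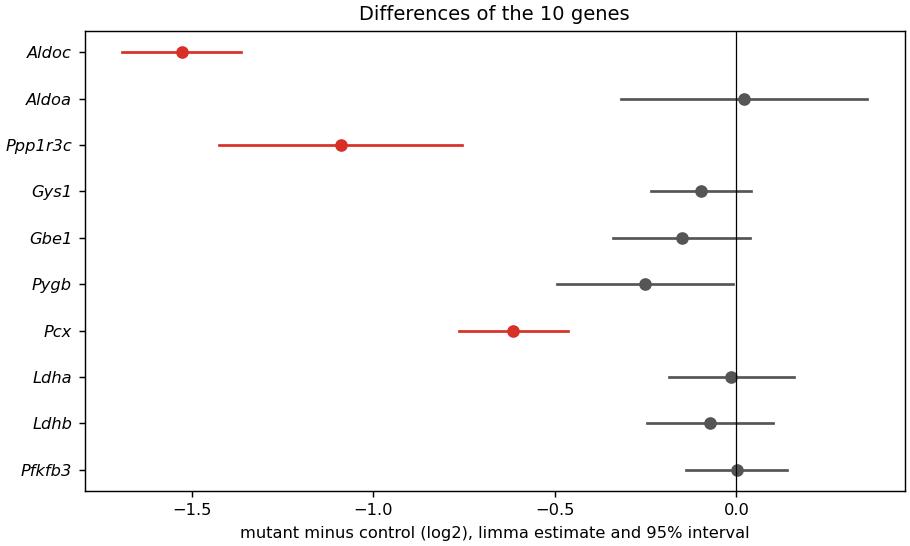
Mutant minus control difference of each gene on the log2 scale, with the 95% interval of the limma fit, in red for genes called at an adjusted p under 0.05. The estimates run from -1.53 for Aldoc to 0.02 for Aldoa, and the intervals of Aldoa, Gys1, Gbe1, Ldha, Ldhb and Pfkfb3 include 0.

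Other genes of glycolysis and of pyruvate handling gave no call, where 1.01% of all genes tested were called lower and 0.0143% higher. Having no call does not set lists of this size apart from all genes. Of 25 other glycolysis genes 18 were tested and none passed in limma. At an unadjusted p under 0.05, 0 were lower and 1 was higher, against 7.69% and 5.73% of all genes. The median difference of the glycolysis genes was 0.01. Their differences ran from -0.11 for Hk2, a hexokinase, to 0.20 for Pgam2, the muscle phosphoglycerate mutase. Pfkp, the platelet form of phosphofructokinase, had the smallest p, going from 10.77 and 10.84 in controls to 10.998 and 11.02 in mutants (0.20 ± 0.06 SE, adjusted p = 0.237). Gapdh, Eno1 and Gpi1 were not analysed here, having no feature with their symbol alone. Tigar, a phosphatase that counters PFKFB enzymes, differed by 0.15 (adjusted p = 0.378) and Pfkfb4 by 0.10 (adjusted p = 0.504).

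Of 29 other genes of pyruvate and lactate handling and gluconeogenesis 24 were tested and none passed. At an unadjusted p under 0.05, 1 was lower and 2 were higher, against 7.69% and 5.73% of all genes. The median difference was 0.01. Me1, the cytosolic malic enzyme, had the smallest p and went from 9.19 and 9.50 in controls to 9.82 and 9.74 in mutants (0.43 ± 0.11 SE, adjusted p = 0.205). Emb, embigin, a chaperone of lactate transporters, differed by -0.22 (adjusted p = 0.270), and Slc16a7, the lactate and pyruvate transporter MCT2, by 0.27 (adjusted p = 0.353). Pdk2, a kinase that switches pyruvate dehydrogenase off, passed without mutant 2 (-0.38, adjusted p = 0.0288). The subunits of pyruvate dehydrogenase itself, Pdha1 and Pdhb, differed by 0.02 each (adjusted p = 0.937 and 0.948).

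Neither the list of glucose transporters nor the list of hypoxia response genes had a called member. With 1.01% of all genes tested called lower and 0.0143% higher, that does not set lists of this size apart. The hypoxia list holds none of the enzyme genes described here, called or not. Whether Aldoc, Ppp1r3c and Pcx belong to the hypoxia response was not tested. Of 8 glucose transporters 7 were tested (median difference -0.03, none at an unadjusted p under 0.05), and Slc2a6 (0.16, adjusted p = 0.462), Slc2a4 (-0.09, adjusted p = 0.590) and Slc2a8 (-0.07, adjusted p = 0.658) had the smallest p. Of 19 hypoxia genes 18 were tested (median difference -0.00, 2 lower and 0 higher at an unadjusted p under 0.05). At that p, 7.69% of all genes tested were lower and 5.73% higher. P4ha1, a collagen prolyl hydroxylase, differed by -0.27 (adjusted p = 0.220), Egln3, an oxygen sensor, by -0.28 (adjusted p = 0.277), and Kdm3a, a histone demethylase, by -0.14 (adjusted p = 0.422). The first of these passed without mutant 2 (-0.35, adjusted p = 0.0363), as did Egln3 (-0.39, adjusted p = 0.0260). Vegfa, the vascular growth factor, named after its value was seen, differed by 0.00.

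**Figure D3:**
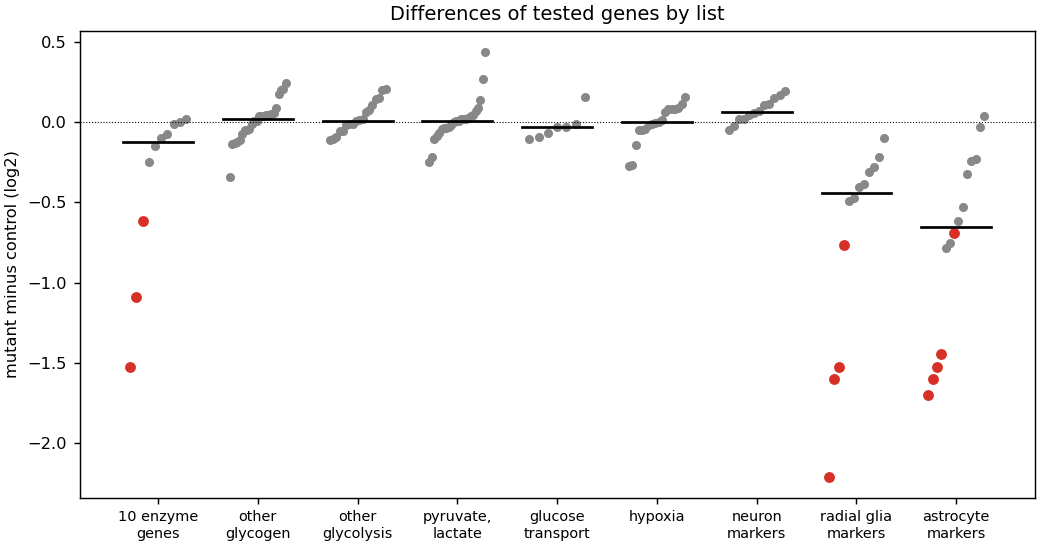
Mutant minus control difference (log2) of every tested gene of 9 lists, 1 point a gene, red where called at an adjusted p under 0.05, with a bar at the median of the list. Called points appear among the 10 enzyme genes (3), the radial glia markers (4) and the astrocyte markers (5). The last 2 lists share Slc1a3 and Fabp7. The other glycogen, glycolysis, pyruvate, glucose transport and hypoxia genes lie between -0.35 and 0.43. Lists not drawn include oligodendrocyte precursor markers (3 of 8 tested called lower) and microglia markers (1 of 7). Over all genes tested 1.01% were called lower.

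Some markers of glia fell in the same arrays, by the counts that follow. For comparison, 1.01% of all genes tested were called lower and 0.0143% higher. At an unadjusted p under 0.05, 7.69% of all genes tested were lower and 5.73% higher. In a bulk sample, fewer cells of a type and less RNA per cell cannot be told apart. Of 18 astrocyte markers 17 were measured, 14 were tested and 5 were called lower (median difference -0.65), namely Acsbg1, Fabp7, Slc1a3, Aldh1l1 and Sox9, with 9 of the 14 lower at an unadjusted p under 0.05. Gfap, the intermediate filament of mature astrocytes, differed by 0.04. Their summed signal, which bright features dominate, was 14.10 in both controls and 13.14 and 13.34 in mutants on the log2 scale. S100b and Gjb6 were dim in both groups and not tested. Aqp4, a water channel of astrocytes, was at 6.60 and 6.58 in controls and at 5.81 and 5.60 in mutants, and was not tested because its mean over the 4 arrays lay just under the filter (6.16). All 12 radial glia markers were tested and had a lower mean in the mutants, and 4 of them were called (median -0.44), Slc1a3 and Fabp7 again, which stand on both lists, with Tnc and Hopx. At an unadjusted p under 0.05, 11 of the 12 were lower, with summed signals of 14.27 in both controls and 13.32 and 13.52 in mutants. For the 10 enzyme genes the summed signal was 13.82 and 13.81 in controls and 13.44 and 13.62 in mutants. Neuron markers were bright (median control level 11.69) and had 0 of 12 called. At an unadjusted p under 0.05, 0 were lower and 1 was higher. Both mutants lay above both controls for 6 of the 12 and below them for 0, against 22.8% and 21.4% of all genes tested. The mutant mean was the lower for 2 of the 12, against 47.6% of all genes. The neuron list summed to 15.40 and 15.37 in controls and to 15.49 and 15.46 in mutants. Oligodendrocyte precursor markers had 3 of 8 called lower and 7 lower at an unadjusted p under 0.05. Their median difference was -0.71, and their summed signal was 10.96 and 10.98 in controls and 9.80 and 9.91 in mutants. Microglia markers had 1 of 7 tested called lower, with 5 lower at an unadjusted p under 0.05. Both mutants lay below both controls for 6 of these, with summed signals of 10.40 and 10.39 against 10.12 and 10.19 for the list. None was called among endothelial (8 tested), pericyte (6), erythroid (3) and choroid plexus (3) markers, which at an unadjusted p under 0.05 held 1 lower (erythroid) and 1 higher (pericyte). Ttr, the transthyretin of choroid plexus, stood out on control 2 (9.15, against 6.50 to 7.17 on the other arrays). The part of these markers' cells in the fall of Aldoc, Ppp1r3c and Pcx was not tested.

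The genes whose 4 values were nearest to those of a called gene were found by the root mean square distance after centring each gene on its own mean. For Aldoc they were Slc1a3, the glutamate transporter GLAST (0.0336), Bcan, the proteoglycan brevican (0.0477), and Fabp7, a fatty acid binding protein of radial glia (0.0487). For Pcx they were Gstm3, a glutathione transferase (0.0114), Tst, a mitochondrial sulfurtransferase (0.0126), and Scp2, a sterol carrier protein (0.0207). For Ppp1r3c they were Zcchc24 (0.0223), Mlc1, a membrane protein of astrocytes (0.0255), and Has2, a hyaluronan synthase (0.0401). With 4 arrays these distances describe likeness and have no test.

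Mutant 1 was the lower of both mutants for 9 of the 10 genes, Pfkfb3 being the exception, as it was for 64.1% of all genes tested. It lay below both controls for 9 of the 10, against 43.5% of all genes, and mutant 2 for 6, against 30.5%. The mutants were further apart than the controls for 8 of the 10, against 61.0% of all genes. The gap between the mutants was 0.39 for Aldoa and 0.38 for Ppp1r3c, 0.26 for Pygb, and 0.12 and 0.07 for Aldoc and Pcx. The arrays themselves differed by a root mean square of 0.149 to 0.230 on the log2 scale. Each group held 1 female and 1 male sample by Xist and the Y-linked genes. Map2k1, which encodes MEK1, was at 8.76 and 8.84 in controls and at 8.50 and 8.73 in mutants (difference -0.19, adjusted p = 0.469). Map2k2 was at 8.57 and 8.47 in controls and 8.57 and 8.64 in mutants. Both features summarise probes along the transcript, and neither checks a deletion.

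**Figure D4:**
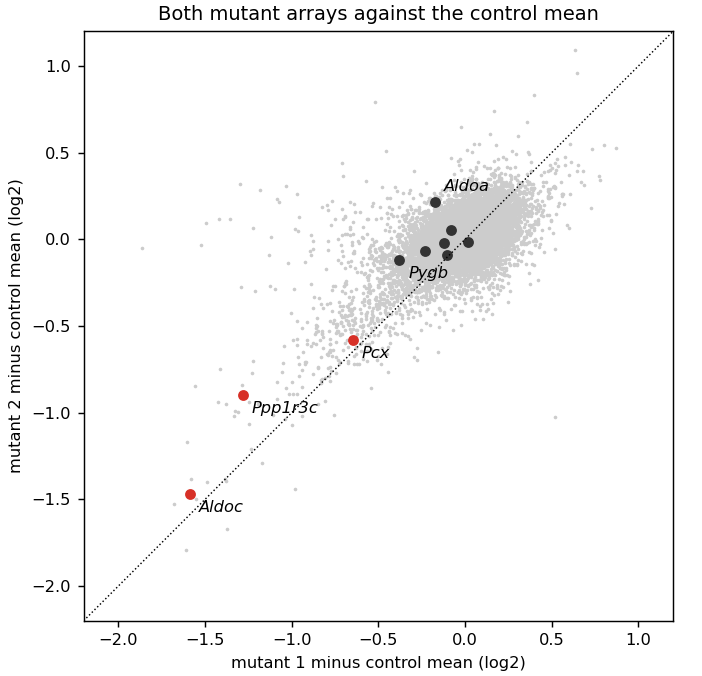
Difference of mutant 1 (x axis) and of mutant 2 (y axis) from the control mean on the log2 scale, for all genes tested (grey, 9 genes lie outside the axes) and for the 10 enzyme genes (red where called, dark where not), with a dotted line where both are equal. Aldoc (-1.59 and -1.47) and Pcx (-0.65 and -0.58) lie near the line, and Aldoa (-0.17 and 0.22) has opposite signs on both arrays.

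The calls rested on few arrays. Aldoc was called in 14 of 15 other fits, Pcx in 10 of 15, and Ppp1r3c in 8 of 14, since the stricter filter left it out. Aldoc was the only member called without control 1 (adjusted p = 0.0397), without control 2 (adjusted p = 0.0361), with the block for embryo sex (0.0169) and with no filter on dim genes (0.0202), and none was called with every feature of the table tested (Aldoc adjusted p = 0.178). The differences themselves ran over these fits from -1.59 to -1.47 for Aldoc, from -0.65 to -0.58 for Pcx and from -1.28 to -0.90 for Ppp1r3c.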

How the data were processed

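RNA from the dorsal cortex of 4 mouse embryo samples, 2 control and 2 mutant, was hybridised to single-colour whole-transcript arrays, 1 array a sample, per the labels. The authors deposited log2 expression values made with RMA, per the submitters' processing notes. The scale was inferred from the range that the values span. No version of RMA is named, with build and filters likewise not given in the sources used here. Medians of the 4 arrays lay between 7.11 and 7.13. RMA equalises the arrays and would hide a shift common to most transcripts. No scanner data were used, and precision is limited by having 4 arrays.

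Of 35557 features, 21789 had 1 gene symbol, 1621 had several and 12147 are not named here. Symbols were updated by Entrez identifier through the RefSeq gene table (GRCm38.p6), which matched 21698. The brightest feature was kept per gene (19938 genes), and genes under the 30th percentile of the mean (log2 6.16) were left out, which left 13956. The mutant minus control difference was fitted with limma (version 3.58.1, under R 4.3.3; lmFit and eBayes, no covariate) and p-values were adjusted by Benjamini-Hochberg over all genes tested. Values are mean ± SD or the moderated SE, and called means an adjusted p under 0.05. The fit was also run on simulated data. Their noise was normal, independent and drawn from the spread that limma had fitted. The run therefore cannot show how well the fit suits the real arrays. Nothing in the labels says that the samples of a group came from separate litters. The p-values therefore rest on the spread between these samples only, pooled by eBayes with that of the other genes tested.

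The members and the 14 other gene lists were chosen with earlier results of these data known. The named genes are the 10 members, the called genes and the 3 with the smallest p of each pathway list, the 3 nearest genes of each called member, the called astrocyte and radial glia markers, and Map2k1 and Map2k2. Others (Pygm, Pygl, Hk2, Pgam2, Pdk2, Pdha1, Pdhb, Vegfa, Ttr, Gfap, Aldoart1, Aldoart2, Aqp4, S100b, Gjb6) were named after their values were seen. Replicate numbers were shared between the groups, and same-numbered samples deviated with a correlation of -0.16, so the numbers were not taken to pair the samples.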

Additional observations from a re-analysis of the deposited data

How the results depend on the processing

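The count of genes called lower (141) and higher (2) differed between fits. It was 0 and 0 with all features tested, 15 and 0 with no filter on dim genes, 217 and 21 with a trend in eBayes, and 17 and 0 with the crossed pairing, a block that here equals embryo sex and was chosen after seeing the data. The lower and higher counts were 172 and 8 with array weights, and 130 and 4 with each array centred on its median. After further quantile normalization they were 141 and 1, and under the stricter filter 130 and 11. Leaving out 1 array gave between 9 and 731 lower and between 0 and 150 higher. Of the 10 enzyme genes, 3 were called lower in the reported fit, 0 with all features tested, 1 with no filter, 1 with the crossed pairing, 2 after further quantile normalization (Ppp1r3c at 0.0524), 2 under the stricter filter, which left Ppp1r3c out, and 1 to 4 with 1 array left out, the lowest without either control and the highest without mutant 2. The glycogen list and the pyruvate and lactate list had 0 to 1 called lower with 1 array left out, the 1 in each case without mutant 2. The change of Aldoc minus Aldoa ran from -1.69 to -1.42 with 1 array left out, and that of Ldhb minus Ldha from -0.12 to 0.0043, with the sign turned without control 1. Single genes whose difference turned sign with 1 array left out were Aldoa (-0.17 to 0.22), Ldha (-0.082 to 0.054) and Pfkfb3 (-0.014 to 0.017). With the replicate number as a block, 113 genes were called lower and 3 higher, with the same 3 members called (Aldoc adjusted p = 0.0211, Pcx 0.0471, Ppp1r3c 0.0449). With 1 array left out, the lone sample of its group is assumed to vary like the other group. The cause of these shifts was not tested.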
